A study of Mus musculus with 4 samples.

Results

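The C-type lectin receptors of myeloid cells, 10 genes in all, were followed in RNA of cultured mouse primary myoblasts: Clec7a, Clec4a1, Clec4a2, Clec4a3, Clec4d, Clec4e, Clec4n, Clec5a, Clec10a and Clec12a. They were picked by gene symbol, and the pooled expression values of these same WT and Tet2 KO cells were known when they were picked, so the levels and differences given here are a description and carry no test. All 10 were found among the 24445 genes of the expression table. The study compared 2 WT libraries with 2 Tet2 KO libraries, all from C57BL/6 mice. The WT mice carried an intact Tet2 gene, which encodes a dioxygenase that oxidises methylated cytosine in DNA. The Tet2 KO mice carried a deletion of an exon of Tet2 made by homologous recombination, which is not restricted to muscle cells. By the study's methods, young adult male mice were used unless stated otherwise. In both genotypes, satellite cells of hindlimb muscle had been sorted for CD34 and integrin alpha 7, with cells bearing CD45, CD11b, CD31 or Sca1 left out, and then cultured on collagen for at least 3 days before RNA was taken. The sources used here name no other agent or allele, and do not say whether the libraries of a genotype came from separate animals.

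C-type lectin receptors of myeloid cells are membrane proteins with an extracellular lectin-like domain that binds sugars, lipids or proteins of microbes and damaged cells. The activating receptors signal through an immunoreceptor tyrosine motif, either their own, as in Clec7a, or that of a partner adaptor such as Fcer1g or Tyrobp, and pass the signal to the kinase Syk and the scaffold Card9. The inhibitory receptors carry a tyrosine motif that recruits phosphatases such as Ptpn6. Macrophages, monocytes, neutrophils and dendritic cells are their usual sites of expression, and satellite cells are not known for it.

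Each gene had a single FPKM value in each genotype, taken here as the authors' pooled value over its libraries, which the sources do not state. No error therefore stands beside a level and no value per library can be shown. FPKM is scaled by transcript length, which allows levels of different genes to be compared. A gene was counted as past the limit when log2((Tet2 KO FPKM + 1) / (WT FPKM + 1)) was at least 1 or at most -1, a 2-fold difference, and this quantity is called the log2 difference below. The added 1 FPKM understates the difference of genes with low levels, so the plain ratio of Tet2 KO to WT is given too. Tet2 itself had 5.79 FPKM in Tet2 KO against 6.64 FPKM in WT, a value over all exons that does not show the deleted exon and so does not check the labels. The myoblast genes Myod1 and Des had 313 and 372 FPKM in Tet2 KO and 336 and 449 FPKM in WT. Of all 24445 genes, 1.02% were at least 2-fold higher and 0.585% at least 2-fold lower in Tet2 KO.

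The 250 bases before the annotated start are shown for 5 of the 6 receptors past the limit, because these genes differed in the same direction and their upstream sequence is what the table does not show. The sequences come from RefSeq, which listed a start for 8 of the 10 genes (Clec4n and Clec10a had no entry), and each of the 8 had 1 exact match on chromosome 6 of mm9, the build of the expression table. Capitals mark GAGGAA, the core letters bound by the myeloid transcription factor PU.1, or TTCCTC, the same letters on the other strand. Clec7a lies at chr6:129422798-129423047 on the minus strand, Clec4d at chr6:123211875-123212124 on the plus strand, Clec12a at chr6:129300012-129300261 on the plus strand, Clec5a at chr6:40535805-40536054 on the minus strand and Clec4a2 at chr6:123072458-123072707 on the plus strand.
Clec7a: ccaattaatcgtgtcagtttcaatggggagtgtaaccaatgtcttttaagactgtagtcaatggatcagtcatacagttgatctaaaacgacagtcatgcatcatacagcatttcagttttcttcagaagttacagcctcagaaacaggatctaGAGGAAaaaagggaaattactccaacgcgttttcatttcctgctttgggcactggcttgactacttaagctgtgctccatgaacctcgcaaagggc
Clec4d: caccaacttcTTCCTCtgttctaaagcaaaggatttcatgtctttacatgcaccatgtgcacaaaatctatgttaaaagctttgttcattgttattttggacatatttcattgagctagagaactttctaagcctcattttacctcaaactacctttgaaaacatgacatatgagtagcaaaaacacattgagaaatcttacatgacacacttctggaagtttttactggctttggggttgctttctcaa
Clec12a: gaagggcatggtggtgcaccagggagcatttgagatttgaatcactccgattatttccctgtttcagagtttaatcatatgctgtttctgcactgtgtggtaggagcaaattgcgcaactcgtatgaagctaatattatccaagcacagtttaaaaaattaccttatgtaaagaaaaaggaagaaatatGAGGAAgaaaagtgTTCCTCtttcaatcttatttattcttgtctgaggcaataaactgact
Clec5a: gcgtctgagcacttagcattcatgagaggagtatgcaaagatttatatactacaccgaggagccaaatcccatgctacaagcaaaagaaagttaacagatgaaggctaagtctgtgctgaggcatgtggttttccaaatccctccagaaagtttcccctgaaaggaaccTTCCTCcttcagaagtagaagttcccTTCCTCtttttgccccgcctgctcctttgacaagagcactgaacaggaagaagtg
Clec4a2: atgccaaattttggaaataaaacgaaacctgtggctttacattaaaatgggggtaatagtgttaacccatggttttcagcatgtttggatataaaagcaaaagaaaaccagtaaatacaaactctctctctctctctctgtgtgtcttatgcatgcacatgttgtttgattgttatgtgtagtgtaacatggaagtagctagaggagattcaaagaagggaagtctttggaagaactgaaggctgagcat

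Clec7a held the letters once, from 96 to 91 bases before the start. Clec12a held them on both strands, 61 to 56 and 47 to 42 bases before the start, and Clec5a held them on the minus strand at 81 to 76 and 55 to 50 bases. In Clec4d the single match lay at 240 to 235 bases, on the minus strand. Clec4a2 and Clec4a3 held no match, which says only that these letters are absent from this window. GAGGAA on either strand was present in 6 of the 8 receptor sequences and in 23.1% of the 27025 upstream sequences of the same length, 1 per gene. Clec4a1 and Clec4e, not shown, each held it at 2 positions. TTNCNNAA, a loose form of the letters bound by C/EBP factors, was present in 5 of the 8 receptor sequences and in 36.9% of all. It did not overlap GAGGAA in the receptor sequences. A match is a description of the letters and not a site of binding.

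All 10 receptors had a higher level in Tet2 KO than in WT, and 6 of them were past the 2-fold limit, where 1.02% of all genes were. None was lower. The median log2 difference of the 10 genes was 1.33, beside 0 over all genes, and the median ratio was 4.34. With a filter of a mean of at least 1 FPKM, 6 receptors remained (Clec4n, Clec7a, Clec12a, Clec4d, Clec5a and Clec4a2), and these were the 6 past the limit; 2.08% of the 11692 genes passing that filter were past it in the same direction. Clec4d, Clec5a and Clec4a2 were below 1 FPKM in WT and passed the filter only through their Tet2 KO level, so nothing is read from that count. The other 4 stayed below a mean of 1 FPKM and below the limit.

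**Figure D1:**
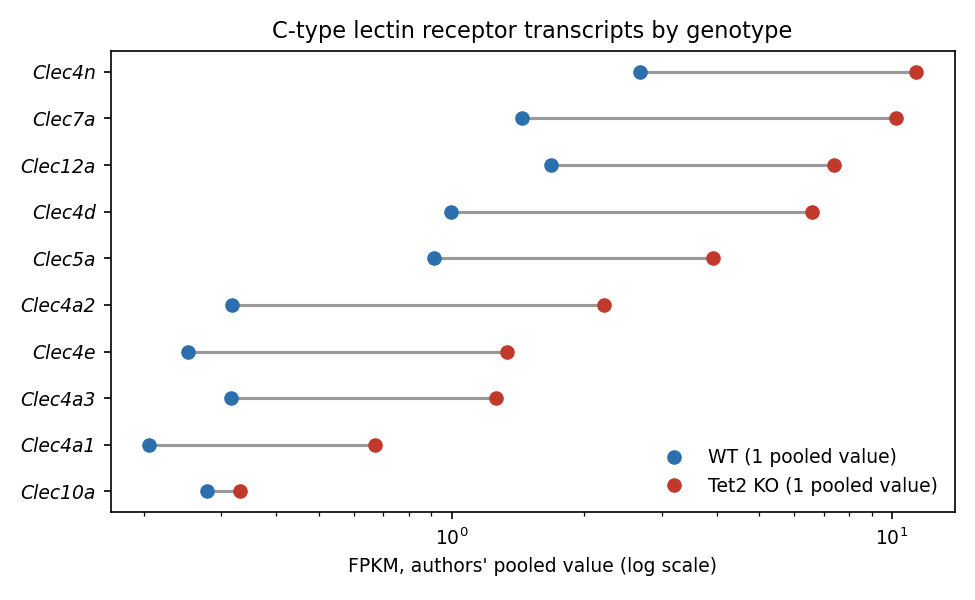
Level of each receptor in WT (blue) and Tet2 KO (red) in FPKM on a log axis, 1 pooled value per genotype with no error available, ordered by the Tet2 KO level. The red point of each gene lies to the right of the blue one for all 10 genes, by the most for Clec7a (10.2 against 1.45 FPKM) and by the least for Clec10a (0.331 against 0.279 FPKM).

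Among the activating receptors, Clec4n and Clec7a were the most abundant. Clec4n, known as Dectin-2, binds fungal mannans and uses Fcer1g as its adaptor. It had 11.4 FPKM in Tet2 KO against 2.67 FPKM in WT, a log2 difference of 1.75 and a ratio of 4.25. Clec7a, known as Dectin-1, is the receptor for fungal beta-glucan. It had 10.2 FPKM in Tet2 KO against 1.45 FPKM in WT, with the largest log2 difference of the family at 2.19 and a ratio of 7.05. By the log2 difference Clec7a stood at rank 13 of the 24445 genes.

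Clec4d and Clec4e encode a pair of related receptors, MCL and Mincle, that recognise mycobacterial glycolipid and signal through Fcer1g. Clec4d had 6.60 FPKM in Tet2 KO against 0.996 FPKM in WT, a log2 difference of 1.93. Clec4e was lower in abundance, with 1.34 FPKM in Tet2 KO against 0.252 FPKM in WT. The log2 difference of Clec4e was 0.90, below the limit, although its ratio of 5.31 was above that of Clec4n. Within each genotype Clec4d therefore exceeded Clec4e, and their ratios of Tet2 KO to WT, 6.63 and 5.31, were of a like size.

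Clec5a, which pairs with the adaptor Tyrobp, had 3.92 FPKM in Tet2 KO against 0.914 FPKM in WT. Its log2 difference was 1.36 and its ratio 4.29. Of the 5 activating receptors, 4 were past the limit, and their levels summed to 33.4 FPKM in Tet2 KO against 6.28 FPKM in WT.

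Both inhibitory receptors were past the limit. Clec12a, found on granulocytes and monocytes and able to bind urate crystals, had 7.40 FPKM in Tet2 KO against 1.69 FPKM in WT, a log2 difference of 1.64. Clec4a2, also called DCIR, had 2.22 FPKM in Tet2 KO against 0.318 FPKM in WT. Its log2 difference was 1.29, and its ratio of 6.98 was close to that of Clec7a. Activating and inhibitory receptors thus differed in the same direction.

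The 3 remaining receptors were the least abundant together with Clec4e. Clec4a3 had 1.26 FPKM in Tet2 KO against 0.315 FPKM in WT, a log2 difference of 0.78 and a ratio of 4.01. Clec4a1 had 0.672 FPKM in Tet2 KO against 0.205 FPKM in WT, a log2 difference of 0.47 and a ratio of 3.27. These genes lie near Clec4a2 and resemble it in sequence. Clec10a, a receptor for galactose and N-acetylgalactosamine on macrophages and dendritic cells, was the exception of the family. It had 0.331 FPKM in Tet2 KO against 0.279 FPKM in WT, a log2 difference of 0.06 and a ratio of 1.19. Its neighbour Mgl2, a close relative of Clec10a and named here after its values were seen, was lower in Tet2 KO, with 5.47 against 8.02 FPKM and a log2 difference of -0.48.

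**Figure D2:**
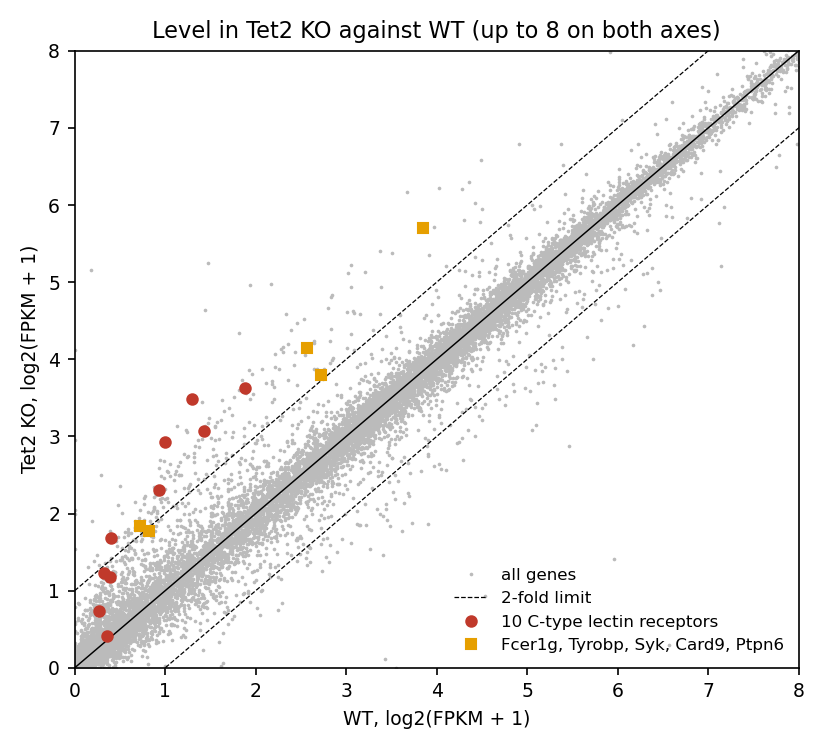
Level in Tet2 KO against level in WT, each as log2(FPKM + 1), for genes up to 8 on both axes (grey), the 10 receptors (red) and 5 signalling partners (orange), with the line of equality (solid) and the 2-fold limits (dashed). The 6 receptors past the limit lie above the upper dashed line, and Clec10a lies next to the line of equality at the lower left.

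The order of the 10 levels differed little between genotypes. In both, Clec4n was the most abundant, and Clec4n, Clec7a, Clec12a and Clec4d held 78.5% of the summed level of the 10 genes in Tet2 KO and 74.9% in WT. The summed level was 45.3 FPKM in Tet2 KO against 9.09 FPKM in WT, a ratio of 4.99. In WT, 7 of the 10 receptors were below 1 FPKM, and in Tet2 KO 8 were at or above it. Which neighbours in this order differ beyond the spread of the libraries cannot be said from pooled values.

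The receptors also differed in how their reads could be assigned. Of the stretches of 50 bases in the annotated transcripts of Clec10a, 14.3% also occurred in transcripts of Mgl2, so the value of Clec10a is uncertain. In Clec4a2, 6.49% of such stretches occurred in other genes, among them Clec4a4 and Clec4b1. The other 8 receptors shared none with any protein-coding transcript of the annotation. Clec4a2 and Clec4a3 had the most alike coding sequences, with 545 identical bases of 705 aligned (77.3%), followed by Clec4a1 and Clec4a2 at 75.2% and Clec4a1 and Clec4a3 at 73.5%. Gaps were left out of these shares, and the median over the 45 pairs of receptors was 65.2%. The next pair, Clec5a and Clec10a, had 71.3%. No annotated gene of GENCODE vM1 overlapped the locus of a receptor.

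Of the 10 receptor genes, 9 lie on chromosome 6. Clec4a1, Clec4a3, Clec4a2, Clec4n, Clec4d and Clec4e share a stretch of 368 kb, from 122871866 to 123239889 in mm9. Each has 6 exons except Clec4a2, which has 7. Another 3 lectin genes lie between them. Clec4b2 had 1.49 FPKM in Tet2 KO against 0.327 FPKM in WT, a log2 difference of 0.91 and a ratio of 4.55. Clec4a4 and Clec4b1 were listed at 0 in WT and had 0.0202 and 0.0748 FPKM in Tet2 KO. Clec4a4 and Clec4b1 were too low in both genotypes for a difference to be read.

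Clec12a and Clec7a share a second stretch of 122.5 kb, from 129300262 to 129422797. The 4 lectin genes between them, Clec12b, Clec1b, Clec9a and Clec1a, had at most 0.0412 FPKM in either genotype. Clec5a lies apart on the same chromosome, from 40524897 to 40535804, and Clec10a on chromosome 11, from 69980125 to 69984338. Within 200 kb of these 4 places the table held 62 other genes, of which 1 was at least 2-fold higher in Tet2 KO and 0 were at least 2-fold lower. That gene was C3ar1, a receptor for the complement fragment C3a found on myeloid cells, with 3.81 FPKM in Tet2 KO against 0.958 FPKM in WT. Of all genes, 1.02% were at least 2-fold higher, so nothing is read from this count. Many neighbours were below 1 FPKM in both genotypes and could not pass the limit. These were 12 at Clec10a, 8 at Clec5a, 5 at the Clec4 stretch and 15 at the stretch of Clec12a and Clec7a. Below the limit, the glucose transporter gene Slc2a3 beside the Clec4 genes had 1.65 and 0.717 FPKM, a ratio of 2.30, and Cd69, a lectin-like gene beside Clec12a, had 0.843 and 0.122 FPKM, a ratio of 6.93. Mgam near Clec5a had 0.490 and 0.221 FPKM. Other flanking genes had closer values, such as Necap1 with 20.3 and 22.2 FPKM, Gabarapl1 with 30.3 and 30.0 FPKM and Ssbp1 with 45.7 and 49.4 FPKM in Tet2 KO and WT.

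**Figure D3:**
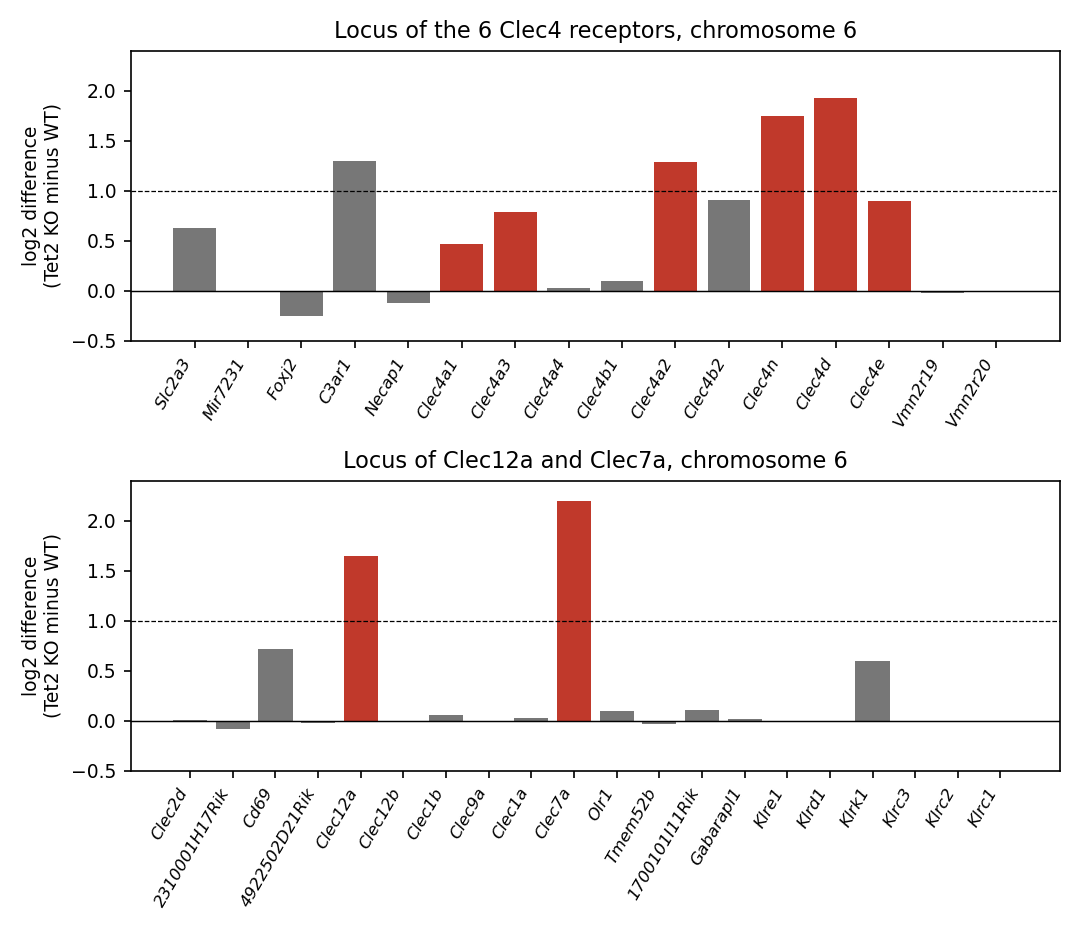
Log2 difference (Tet2 KO minus WT) of the genes at both receptor clusters of chromosome 6 and within 200 kb of them, as bars in genomic order with equal spacing, with receptors in red, other genes in grey and the 2-fold limit dashed. Red bars reach from 0.47 (Clec4a1) to 2.19 (Clec7a), and C3ar1 is the grey bar above the limit.

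The signalling chain of the receptors was described from 4 lists with 45 genes in all, of which 11 were at least 2-fold higher and 0 at least 2-fold lower, with a median log2 difference of 0.40. Among 12 adaptors and kinases, 4 were past the limit. Tyrobp, the adaptor of Clec5a, had 51.1 FPKM in Tet2 KO against 13.4 FPKM in WT, a log2 difference of 1.85. Fcer1g, the adaptor of Clec4n, Clec4d and Clec4e, had 16.7 and 4.91 FPKM and a log2 difference of 1.58. The kinase Syk, which docks on the phosphorylated adaptors, had a log2 difference of 1.12. Src, which is expressed in many cell types, had 10.3 and 10.6 FPKM, and Fyn was lower in Tet2 KO, with 15.5 against 27.7 FPKM, a log2 difference of -0.80.

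Of the 14 genes downstream of Syk, 2 were past the limit. Vav1 had 3.64 FPKM in Tet2 KO against 0.833 FPKM in WT, and the phospholipase Plcg2 had 4.20 and 1.43 FPKM. Card9, the scaffold of this route, had 2.43 and 0.770 FPKM, a log2 difference of 0.96 just below the limit. Its partners Bcl10 and Malt1, which many cells express, had log2 differences of 0.05 and 0.14, and the NF-kappaB genes Nfkb1, Rela and Rel had -0.01, -0.15 and 0.01. Of the 3 phosphatases, Ptpn6 had 12.9 and 5.60 FPKM and Inpp5d 3.25 and 0.971 FPKM, both past the limit, while Ptpn11 had 56.7 and 55.6 FPKM.

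Of 16 genes of the inflammatory response, 3 were past the limit: Ptgs2 with 55.1 FPKM in Tet2 KO against 18.7 FPKM in WT, Cxcl1 with 90.8 and 41.1 FPKM and Pycard with 7.79 and 3.19 FPKM. Il6 and Tnf had log2 differences of 0.98 and 0.95, just below it. Il1b had -0.31, and Il10, Il12b and Il23a were below 0.1 FPKM in both genotypes. The receptors, with a median of 1.33, lay above the median of 0.51 of these response genes.

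Another 68 genes with a C-type lectin-like domain formed the comparison within the family. Their median log2 difference was 0.006, and 52 of them were below 1 FPKM in both genotypes. Of the 68, 3 were at least 2-fold higher in Tet2 KO and 0 at least 2-fold lower. Among these, Klra2 had 2.13 and 0.373 FPKM, and the macrophage mannose receptor Mrc1 had 3.84 and 1.40 FPKM. The most abundant lectin of this kind, Clec2d, had 54.0 and 53.6 FPKM, a log2 difference of 0.01. Lectin genes known from dendritic cells had unlike levels. Cd209a was listed at 0 in WT, with 0.0139 FPKM in Tet2 KO, and Clec9a had 0.0130 and 0.0131 FPKM, while Ly75 had 8.72 and 9.99 FPKM and Cd209c 3.11 and 2.85 FPKM.

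**Figure D4:**
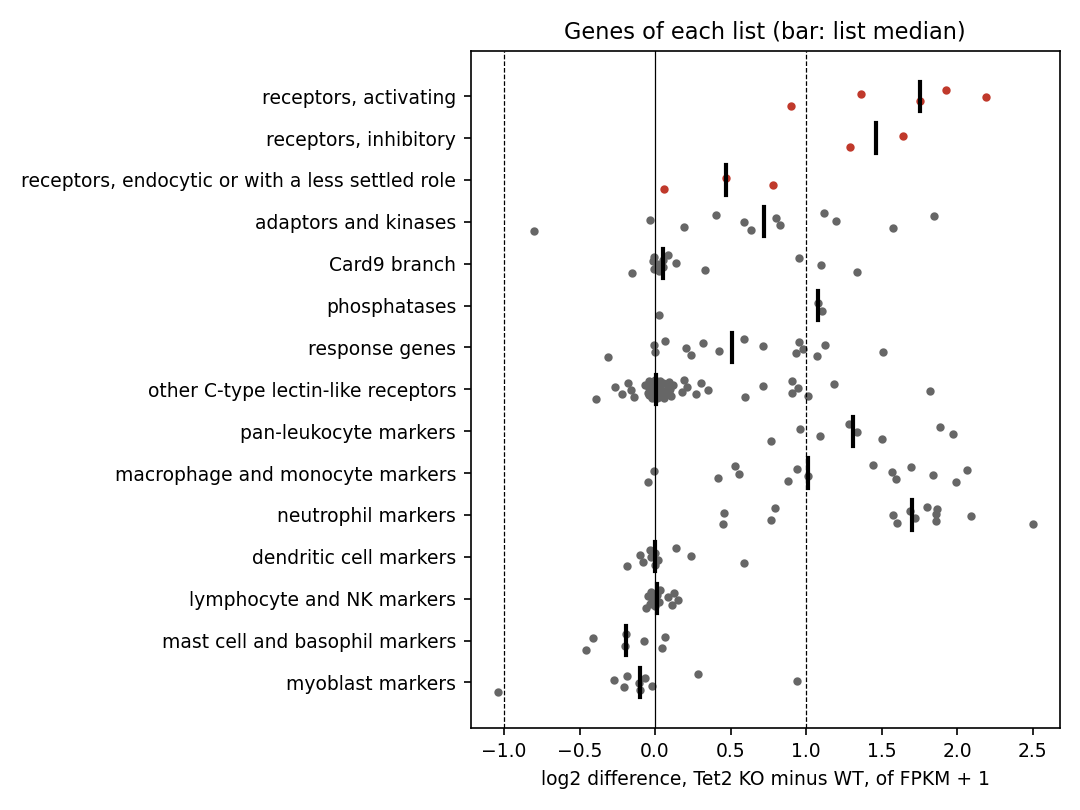
Log2 difference (Tet2 KO minus WT, of FPKM + 1) of every gene in each list, 1 point per gene, with the list median as a black bar and the 2-fold limits dashed; the 3 receptor lists are in red. The activating and inhibitory receptors have medians of 1.75 and 1.47, and the receptors of less settled role 0.47. The pan-leukocyte and neutrophil markers have 1.31 and 1.70, and the macrophage and monocyte markers 1.01. The dendritic cell, lymphocyte and mast cell medians lie between -0.19 and 0.01. Most genes of the latter lists were below 1 FPKM in both genotypes, where no gene can pass the limit.

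The genes with the levels most like Clec4n, by distance on the log2(FPKM + 1) scale over the 2 pooled values, were Ncf4, Ncf1, Hk3, Bcl2a1b and Ms4a6d. Their distances were 0.063, 0.068, 0.106, 0.125 and 0.149. Ncf4 had 10.9 FPKM in Tet2 KO against 2.70 FPKM in WT, and Ncf1 had 11.2 and 2.52 FPKM, beside 11.4 and 2.67 FPKM of Clec4n. With 2 values per gene this is a coarse measure of likeness.

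Markers of leukocytes were higher in Tet2 KO together with the receptors, although CD45 and CD11b had been used to remove leukocytes in the sort. Ptprc, which encodes CD45, had 5.67 FPKM in Tet2 KO against 1.36 FPKM in WT, and Itgam, which encodes CD11b, had 10.1 and 2.09 FPKM. The genes of the other antigens used to leave cells out had closer values. Pecam1 (CD31) had 1.48 and 1.63 FPKM, and Ly6a (Sca1) had 288 and 278 FPKM. Itga7, whose product was used to select cells, had 190 and 199 FPKM. Of 8 pan-leukocyte markers, 6 (Ptprc, Cd53, Coro1a, Cd52, Vav1 and Was) were at least 2-fold higher in Tet2 KO, and the 8 levels summed to 90.2 and 24.9 FPKM. Of 15 macrophage and monocyte markers in the table, 8 were past the limit, with sums of 344 and 85.8 FPKM, led by Lyz2 with 253 and 59.5 FPKM. Cx3cr1 and Cd163 were below 0.1 FPKM in both genotypes. Of 14 neutrophil markers, 10 were past the limit, with sums of 2024 and 570 FPKM, S100a8 as the most abundant (941 and 285 FPKM) and Ltf with the largest log2 difference, 2.50. Vav1 stands in both a marker and a signalling list, and Mrc1 in both a marker and a lectin list.

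Of 11 dendritic cell markers, 0 were past the limit, and Flt3, Siglech and Cd209a were below 0.02 FPKM in both genotypes. Others of this list were expressed. Irf8 had 27.4 FPKM in Tet2 KO against 18.0 FPKM in WT, a log2 difference of 0.59. Zbtb46 had 2.16 and 2.39 FPKM, and Ciita 1.95 and 2.36 FPKM. Of 13 lymphocyte and NK markers and 7 mast cell and basophil markers, likewise 0 were past the limit. These counts of 0 say little, because a gene below 1 FPKM in both genotypes cannot pass with 1 FPKM added. That held for 8 of the dendritic cell, 12 of the lymphocyte and NK, and 6 of the mast cell and basophil markers. Of 10 myoblast markers, 0 were at least 2-fold higher and 1, Myog, was at least 2-fold lower, with 268 FPKM in Tet2 KO against 554 FPKM in WT. Cd34, also used in the sort, had 6.74 and 3.03 FPKM, a log2 difference of 0.94 just below the limit. In bulk RNA, fewer cells of a type and less RNA per cell cannot be told apart, and the part of these leukocyte markers in the differences of the receptors was not tested.

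The receptors were set beside Ptprc within each genotype, a ratio chosen after the values were seen. For each FPKM of Ptprc there were 2.01 FPKM of Clec4n in Tet2 KO and 1.97 FPKM in WT. The values were 1.31 and 1.24 for Clec12a, 0.692 and 0.674 for Clec5a, and 0.223 and 0.232 for Clec4a3. With Ptprc, these 4 proportions were of a like size in Tet2 KO and WT. Clec7a had 1.80 FPKM per FPKM of Ptprc in Tet2 KO and 1.07 in WT, Clec4d 1.16 and 0.734, and Clec4a2 0.392 and 0.234, so that these proportions were higher in Tet2 KO. Clec4e had 0.236 and 0.186. Clec4a1, with 0.119 and 0.151, and Clec10a, with 0.0584 and 0.205, had lower proportions in Tet2 KO. These proportions hold for Ptprc alone, since the 8 pan-leukocyte markers had ratios of Tet2 KO to WT of their own from 2.15 (Laptm5) to 4.77 (Ikzf1). Clec7a, Clec4a2, Clec4d and Clec4e had ratios above that range, Clec10a below it, and the other receptors within it. Without values per library, how far such proportions vary between libraries of a genotype was not tested.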

How the data were processed

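RNA of WT and Tet2 KO primary myoblasts, 2 libraries each, had been prepared with a TruSeq kit. The authors trimmed and filtered the reads, aligned read pairs to mm9 with TopHat2 2.0.13 and tested KO against WT with Cuffdiff 2.2.1 (versions as in the submitters' processing notes too). The gene annotation, and whether and how the libraries of a genotype were combined, are not given in the sources used here. The deposited FPKM values, 1 per gene and genotype, were used as they stood. The table's columns of fold changes, test statistics, p-values and q-values hold the authors' own comparison and were not used. Depth was not given. Of 2014 genes with both values above 0 and under 0.05 FPKM, 33.3% had a ratio of Tet2 KO to WT from 0.97 to 1.06. That window was set by hand, and nothing about depth is read from the share. The number of fragments per gene was not recovered.

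The receptors and gene lists were chosen with earlier results of these data known. Named genes were the receptors, list genes past the limit or central to receptor signalling, neighbouring genes past the limit, and the 5 genes nearest to the most abundant receptor. Other genes were named after their values were seen. Some list genes past the limit are counted but not reported by name here. Emr1 of the macrophage list was absent from the table, which has the gene as Adgre1. Endothelial and fibroblast markers were also counted, and 0 of 7 and 0 of 8 were past the limit. Of the endothelial markers, 6 were below 1 FPKM in both genotypes and could not pass it. Starts are 1-based (1 was added to the deposited starts). Exons and transcripts came from GENCODE vM1, also mm9, and upstream sequences from RefSeq on GRCm38.p6, placed on mm9 by exact match. With several starts per gene, the first listed was used. Coding sequences were aligned globally with biopython 1.88. Python 3.11.15, numpy 2.4.6, pandas 2.3.3 and matplotlib 3.10.9 were used. The counting of calls was run on a copy of the WT values with planted changes and no added noise, which checks the code only. Alternatives were pseudocounts, TPM, centring, a filter on low values and other fold limits.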

Additional observations from a re-analysis of the deposited data

How the results depend on the processing

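No paired analysis was possible because the table holds 1 pooled value per genotype, and leaving out each replicate in turn was not run either. After rescaling to TPM and after centring, all 10 receptors had a higher level in Tet2 KO. Pseudocounts, fold limits and the filter cannot turn a direction and say nothing about it. The count of 6 receptors past the limit became 9 at a pseudocount of 0.1 FPKM and with none, 8 after rescaling to TPM, 8 at a 1.5-fold limit and 1, Clec7a, at a 4-fold limit. Clec10a was the receptor not past the limit at the lower pseudocounts. The median log2 difference of the receptors of 1.33 became 2.04 at a pseudocount of 0.1 FPKM and 2.12 with none, since a smaller pseudocount shrinks low values less. With a pseudocount of 0.1 FPKM, none, a 1.5-fold limit and a 4-fold limit, the 249 genes higher in Tet2 KO became 637, 1275, 538 and 24, and the 143 genes lower became 372, 1107, 357 and 7. After rescaling to TPM, 338 of all genes were higher and 174 lower, so the background rose too. With no pseudocount, genes listed at 0 in either genotype were left out, so those counts are not out of all genes. The 11 signalling genes became 20, 22, 21 and 0 at the same pseudocounts and fold limits, and 17 after rescaling to TPM. The 3 other lectin-like genes became 9, 11, 8 and 0, and 6 after TPM. Centring changed no count of receptors, signalling genes or other lectin-like genes. The number of fragments behind a value was unknown, which limits the receptors under 1 FPKM most.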
